A study of Mus musculus with 20 samples.

Results

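A set of 36 interferon-stimulated genes was followed through the deposited mouse gene table, which holds 46517 genes. The members were chosen by name, as genes widely used as readouts of interferon exposure, and all 36 were found once each by the Ensembl gene identifier that maps to their symbol. No measured value entered the choice, although the list was drawn up with earlier results of these data known. RNA sequencing was done on 2 white matter tracts of Zdhhc9 knockout and wild-type mice. The Zdhhc9 product is a palmitoyltransferase, and mutations of its human counterpart cause X-linked intellectual disability. The groups were Zdhhc9 knockout optic nerve (KO_ON, n = 5), wild-type optic nerve (WT_ON, n = 4), Zdhhc9 knockout corpus callosum (KO_CCg, n = 6) and wild-type corpus callosum (WT_CCg, n = 5). The sample labels call the mutants knockouts, while the series text speaks of a knockdown. The sources used here give no allele, strain, sex or age for the mice. No interferon, infection or other treatment is named in the labels. Optic nerves were taken whole and frozen, whereas the callosum was cut out of frozen coronal brain sections, so dissection and tract cannot be told apart.

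Zdhhc9 transcripts were lower in knockout libraries of both tracts, with log2 estimates at -1.70 (SE 0.13, adjusted p = 5.4e-04) in optic nerve and -1.95 (SE 0.10, adjusted p = 1.8e-06) in callosum. Total estimated counts per library ran from 18837907 to 25866142 in KO_ON, from 22299837 to 26095622 in WT_ON, from 17333746 to 25028817 in KO_CCg and from 15401130 to 25375187 in WT_CCg. Levels below are estimated counts scaled to the library total (CPM), and fold changes are log2 estimates of the edgeR quasi-likelihood test with their standard error (SE) and Benjamini-Hochberg adjusted p over all genes tested. The p-values measure the spread between libraries that the labels give as separate samples. Library KO_ON_719856 stood apart in this gene set and in marker levels, and WT_CCg_7198587 was among the highest callosum libraries, so results that rest on them are also given without them.

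Interferons are secreted proteins that cells release when they sense foreign or misplaced nucleic acids. Type I interferons bind the receptor made of Ifnar1 and Ifnar2, the kinases Jak1 and Tyk2 then act on transcription factors that include Stat2, and Stat2 joins Irf9 in a complex that binds interferon-stimulated response elements in promoters. The genes switched on in this way include sensors of viral RNA, enzymes that degrade it or block its translation, and brakes on the pathway itself. In the brain, microglia, endothelial cells and the cells of the border tissues are well known to carry this response, and low levels are present without infection.

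The letters of the response element were present in the promoters of 15 members. RefSeq promoter entries (GRCm38.p6, 250 bases before to 50 bases after the start) were found for 26 of the 36 members. The core of the element, GAAA and GAAA with NN (any bases) between them, was searched on both strands and occurred in 15 of these 26, against 3.99% of all 27025 genes with an entry (3.44% of 32851 promoters). The letters TTCNNNGAA, the core of the gamma-activated site, occurred in 6 of 26 members and 9.55% of all genes with an entry (8.3% of promoters). Both are matches of letters in a window and not measured binding. Windows of 50 bases are shown so that the letters of the match and its surroundings can be compared between members. They are given on the strand of the gene, with the core in capitals (TTTC and TTTC with NN between them is the same core on the other strand), and the distance is that of the first capital from the start, with -1 the base just before it.
Isg15 (-72, chr4:156200861-156200910, minus strand): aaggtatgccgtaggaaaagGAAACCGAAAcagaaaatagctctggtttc
Ifit1 (-85, chr19:34640784-34640833, plus strand): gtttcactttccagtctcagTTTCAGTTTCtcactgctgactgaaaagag
Ifit3 (-122, chr19:34583387-34583436, plus strand): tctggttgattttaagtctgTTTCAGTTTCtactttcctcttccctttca
Ifit3b (-154, chr19:34607783-34607832, plus strand): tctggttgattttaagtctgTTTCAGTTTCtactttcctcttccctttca
Bst2 (-124, chr8:71537567-71537616, minus strand): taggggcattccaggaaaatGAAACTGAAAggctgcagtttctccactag
Stat2 (-222, chr10:128270256-128270305, plus strand): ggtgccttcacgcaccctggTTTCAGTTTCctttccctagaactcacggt
Gbp2 (-59, chr3:142620584-142620633, plus strand): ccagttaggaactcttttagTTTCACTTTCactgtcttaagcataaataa
The window is the same in Ifit3 and Ifit3b, which are near-identical neighbours on chromosome 19, and the Isg15 promoter held 3 overlapping matches, of which the middle one is in capitals. Promoter entries of Irf7, Irf9, Oasl1, Oasl2, Ifit2, Ifi35, Ifi44, Cmpk2, Lgals3bp, Samd9l and Xaf1 did not hold these letters in this window.

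The interferon-stimulated genes were more abundant in optic nerve than in corpus callosum, in both genotypes. All 36 members had a positive log2 fold change of optic nerve over callosum. Of these, 35 were called higher in knockout and 32 in wild type (adjusted p under 0.05 and at least 1 on the log2 scale), against 14.9% and 13% of all 16440 genes tested. Among the called, Oas2, Oasl1 and Zbp1 failed the low-count filter in callosum alone. They entered the fit of all libraries through optic nerve, where they were high, so their calls add no separate support. The median over members was 3.30 in knockout and 2.34 in wild type, while the medians over all genes tested were -0.001 and -0.026. Cmpk2, a mitochondrial nucleotide kinase, was the one member short of the fold threshold in knockout (0.71). In wild type, Cmpk2 (0.19, adjusted p = 0.592), Mx2 (0.81), Xaf1 (0.87) and Stat2 (0.91) fell short of it. Levels in every optic nerve library lay above every callosum library for 35 members in knockout and 34 in wild type, against 20.6% and 20.3% of all genes. Oas2, Oasl1 and Zbp1 are also in these counts and in the medians, where they add no separate support either.

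**Figure D1:**
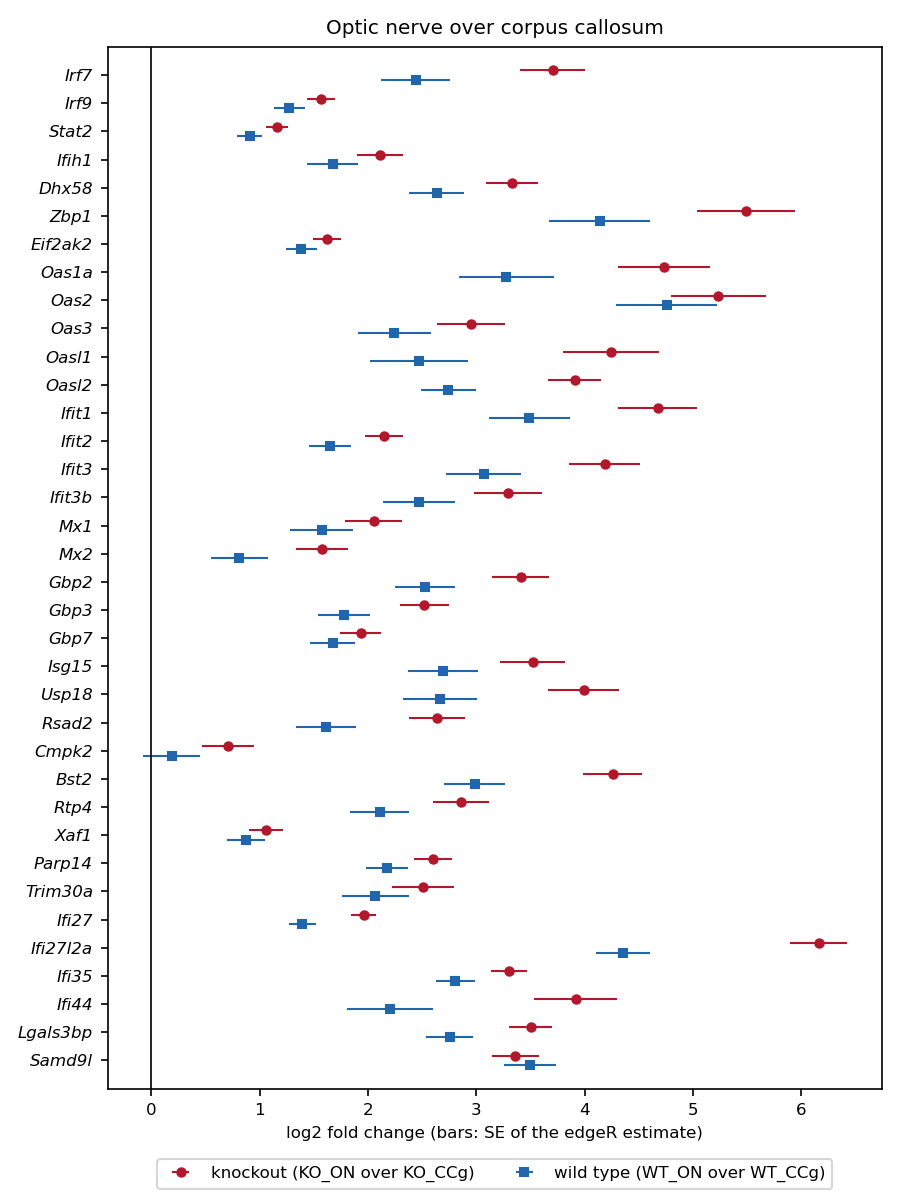
Log2 fold change of optic nerve over corpus callosum for each of the 36 genes, with red circles for knockout and blue squares for wild type and bars for the SE. All points lie right of 0, Cmpk2 lies nearest to 0 in both genotypes, and Ifi27l2a is farthest to the right in knockout at 6.16.

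Summed over the 36 genes, KO_ON_48038A7 had 1271 CPM, KO_ON_48118A4 1437 CPM, KO_ON_693452 1430 CPM, KO_ON_717651 1107 CPM and KO_ON_719856 1848 CPM. Among wild types, WT_ON_700858 had 1248 CPM, WT_ON_701297 1453 CPM, WT_ON_717652 1103 CPM and WT_ON_719857 949.1 CPM. KO_CCg libraries ranged from 235.1 to 282 CPM (median 242.5). WT_CCg_28, WT_CCg_30, WT_CCg_685232, WT_CCg_717652 and WT_CCg_7198587 had 340.3, 347.7, 227.1, 281.9 and 346.4 CPM. The tracts did not overlap, and the lowest optic nerve sum was 2.73 times the highest callosum sum. Group means were 1419 ± 275.7 CPM in KO_ON and 249.2 ± 17.46 CPM in KO_CCg, a ratio of 5.69, and 1188 ± 214.7 CPM in WT_ON and 308.7 ± 53.19 CPM in WT_CCg, a ratio of 3.85 (SD over the libraries of each group).

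**Figure D2:**
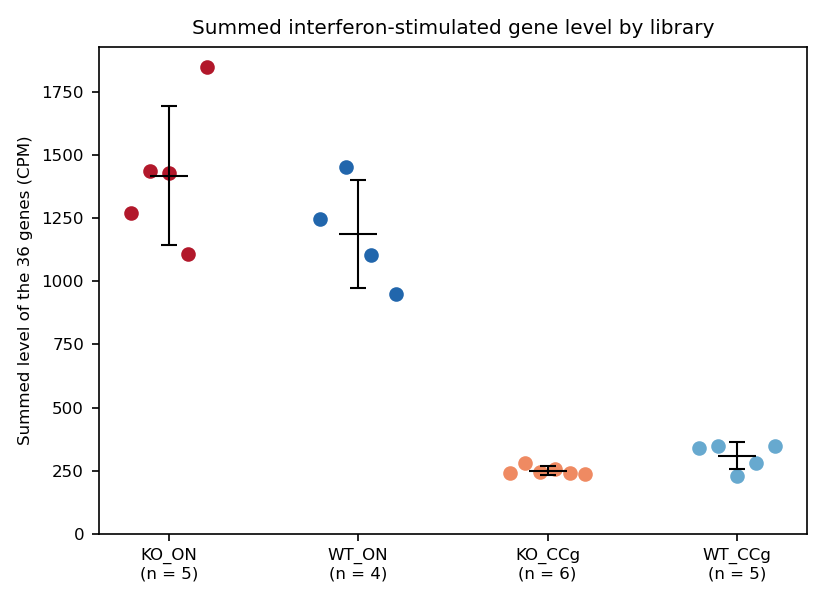
Summed level of the 36 genes in each library (points, CPM) with the group mean and SD (black). Optic nerve libraries lie between 949.1 and 1848 CPM and callosum libraries between 227.1 and 347.7 CPM, while knockout and wild type overlap within each tract.

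Levels of markers of several cell types differed between the tracts as well, and their part in the tract difference was not tested. Over all 16440 genes, 14.9% were called higher in optic nerve in knockout and 13% in wild type. In callosum alone, the low-count filter passed 3 of 10 monocyte and neutrophil markers and 5 of 7 border macrophage markers. It also passed 5 of 16 T and NK cell markers there, and 6 of 8 ependyma and choroid plexus markers in optic nerve alone. Calls of the markers that failed it add no separate support. The 17 microglia markers summed to 1363 to 2156 CPM in KO_ON and 591.2 to 715.5 CPM in KO_CCg, with 12 of 17 called higher, and to 1548 to 1720 CPM in WT_ON and 744.5 to 835.1 CPM in WT_CCg, with 10 of 17 called higher. Border macrophage markers (7 of 7 called in both genotypes) summed to 59.86 to 99.56 CPM in KO_ON and 3.486 to 5.805 CPM in KO_CCg, and to 53.16 to 95.11 CPM in WT_ON and 3.028 to 6.213 CPM in WT_CCg. Of the 10 monocyte and neutrophil markers 9 were called in both genotypes, at 113 to 230.3 CPM in KO_ON and 6.671 to 9.591 CPM in KO_CCg, and at 135.9 to 164.1 CPM in WT_ON and 7.929 to 12.19 CPM in WT_CCg; Ly6g was at 0 in every callosum library. Meningeal fibroblast markers (7 of 8 called in both genotypes) summed to 3259 to 5365 CPM in KO_ON and 115.2 to 177.5 CPM in KO_CCg, and to 2818 to 4951 CPM in WT_ON and 143.4 to 186.4 CPM in WT_CCg. Endothelial markers differed less, with 435.8 to 599.2 CPM in KO_ON and 288.1 to 322.8 CPM in KO_CCg (4 of 10 called), and 510.3 to 564 CPM in WT_ON and 300.3 to 315 CPM in WT_CCg (3 of 10 called). Red blood cell markers (5 of 5 called in both genotypes, medians 3.93 in knockout and 2.90 in wild type) summed to 1512 to 5174 CPM in KO_ON and 176.9 to 245.9 CPM in KO_CCg, and to 1403 to 4102 CPM in WT_ON and 173.2 to 516.3 CPM in WT_CCg. Pericyte and smooth muscle markers (5 of 8 called in both genotypes) summed to 796.7 to 1295 CPM in KO_ON and 220.2 to 294.2 CPM in KO_CCg, and to 849.3 to 1100 CPM in WT_ON and 230 to 328.5 CPM in WT_CCg. Neuron markers, which a nerve without cell bodies should hold at low levels, summed to 232.6 to 458.9 CPM over the optic nerve libraries and to 1320 to 6301 CPM over the callosum libraries. Oligodendrocyte markers, which define white matter, summed to at least 34570 CPM in each of the 20 libraries. Astrocyte markers summed to 8462 to 11210 CPM in KO_ON and 8520 to 10530 CPM in WT_ON. In callosum they summed to 3626 to 4906 CPM in KO_CCg and 4118 to 4643 CPM in WT_CCg. Of the astrocyte markers, 4 of 10 were called higher and 1 lower in both genotypes. T and NK cell markers were called higher for 9 of 14 (knockout) and 8 of 14 (wild type), and lower for 2. Ependyma and choroid plexus markers were called lower for 4 of 8 (knockout) and 5 of 8 (wild type), and higher for 1. In bulk tissue, more cells of a type and more RNA per cell cannot be told apart.

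Ranked by level per kilobase of exon, Ifi27 led the set in all 4 groups, with group medians of 94.4 CPM per kilobase in KO_ON, 104.0 in WT_ON, 27.3 in KO_CCg and 43.3 in WT_CCg. Ifit3 came second everywhere, at 90.8 in KO_ON, 72.1 in WT_ON, 5.60 in KO_CCg and 10.9 in WT_CCg. Ifi27l2a followed in optic nerve, at 56.5 CPM per kilobase in KO_ON and 45.1 in WT_ON, but 22nd and 14th in callosum, at 0.739 in KO_CCg and 2.55 in WT_CCg. Oas3 stood last in both optic nerve groups, at 0.509 and 0.304 in KO_ON and WT_ON.

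Among the transcription factors, Irf7 differed most between the tracts, and Stat2 and Irf9 differed less. Irf7 (chromosome 7, 141262706 to 141266481), which amplifies the interferon response, stood at 28.3, 26.4, 33.9, 18.4 and 54.04 CPM in KO_ON, in the library order given above, and at 22.3, 25.7, 15.1 and 14.9 CPM in WT_ON. Irf7 in callosum ranged from 1.92 to 3.40 CPM (median 2.67) in KO_CCg and was at 4.48, 4.51, 1.49, 3.51 and 4.70 CPM in WT_CCg. The tract difference of Irf7 was 3.71 (SE 0.30, adjusted p = 2.1e-09) in knockout and 2.44 (SE 0.32, adjusted p = 2.3e-06) in wild type. KO_ON_719856 held the highest Irf7 level of all libraries and WT_CCg_685232 the lowest, and the genotypes overlapped in both tracts. Stat2 (chromosome 10, 128270559 to 128292849), a partner in the interferon-activated complex, stood at 66.2, 64.3, 79.2, 59.5 and 64.6 CPM in KO_ON and 65.1, 70.3, 50.4 and 50.9 CPM in WT_ON. Stat2 in callosum ranged from 27.2 to 36.5 CPM (median 32.02) in KO_CCg and was at 34.1, 33.2, 31.3, 33.7 and 31.1 CPM in WT_CCg. The genotypes overlapped for Stat2 in both tracts, and the tract difference was 1.16 (SE 0.10, adjusted p = 7.3e-09) in knockout and 0.91 (SE 0.11, adjusted p = 1.3e-06) in wild type. Irf9 (chromosome 14, 55603571 to 55610030), the DNA-binding subunit of the same complex, stood at 41.5, 39.4, 45.8, 35.5 and 41.9 CPM in KO_ON and 44.8, 42.6, 37.5 and 35.4 CPM in WT_ON. Irf9 in callosum ranged from 11.9 to 17.5 CPM (median 14.8) in KO_CCg and was at 19.8, 19.3, 12.9, 17.9 and 15.7 CPM in WT_CCg. Irf9 overlapped between the genotypes in both tracts, and its tract difference was 1.57 (SE 0.13, adjusted p = 2.8e-09) in knockout and 1.27 (SE 0.14, adjusted p = 3.4e-07) in wild type.

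All 4 sensors of nucleic acids were called higher in optic nerve in both genotypes. Ifih1 (MDA5), a receptor for long double-stranded RNA, ranged from 19.2 to 28.9 CPM in KO_ON, 13.8 to 23.4 CPM in WT_ON, 4.01 to 7.11 CPM in KO_CCg and 3.94 to 8.19 CPM in WT_CCg. Dhx58 (LGP2), its regulator, ranged from 7.29 to 14.6 CPM in KO_ON, 6.77 to 10.3 CPM in WT_ON, 0.594 to 1.79 CPM in KO_CCg and 1.16 to 1.89 CPM in WT_CCg. Zbp1, a sensor of Z-form nucleic acids that can start necroptosis, failed the filter on low counts in callosum and entered the tract fit through the optic nerve libraries. It ranged from 4.85 to 8.97 CPM in KO_ON, 2.06 to 6.32 CPM in WT_ON, 0.0871 to 0.227 CPM in KO_CCg and 0 to 0.428 CPM in WT_CCg, a tract difference of 5.49 (SE 0.46, adjusted p = 2.8e-09) in knockout and 4.14 (SE 0.47, adjusted p = 3.6e-07) in wild type. Eif2ak2 (PKR), a kinase that stops translation, had the smallest tract difference of the 4, 1.62 (SE 0.13, adjusted p = 1.9e-09) in knockout and 1.39 (SE 0.14, adjusted p = 1.1e-07) in wild type.

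The 2-5A synthetase family, whose enzymes make the messenger that activates RNase L, was also called higher in optic nerve throughout (5 of 5 in both genotypes). Of these, Oas2 and Oasl1 entered the tract fit through the optic nerve libraries. Oasl2 (chromosome 5, 114896936 to 114912234), a member with ubiquitin-like domains, stood at 62.2, 57.4, 74.01, 53.3 and 107 CPM in KO_ON and 66.7, 70.1, 45.2 and 30.3 CPM in WT_ON. Oasl2 in callosum ranged from 4.37 to 5.97 CPM (median 5.13) in KO_CCg and was at 8.72, 10.4, 4.97, 7.03 and 9.92 CPM in WT_CCg. KO_ON_719856 was again highest and WT_ON_719857 lowest in optic nerve, and WT_CCg_685232 was the one wild-type callosum library within the knockout range. Oasl1 (chromosome 5, 114923240 to 114937915), known in mice to hold back Irf7 translation, stood at 2.51, 6.12, 2.88, 1.78 and 8.28 CPM in KO_ON and 2.45, 2.84, 2.26 and 1.93 CPM in WT_ON. Oasl1 in callosum ranged from 0.115 to 0.4999 CPM (median 0.172) in KO_CCg and was at 0.325, 0.410, 0.207, 0.552 and 0.684 CPM in WT_CCg, too low to be tested for genotype there. Oas2, likewise too low in callosum, was at 6.73 to 22 CPM in KO_ON, 5.07 to 18.9 CPM in WT_ON, 0.182 to 0.479 CPM in KO_CCg and 0.124 to 0.898 CPM in WT_CCg. Oas1a (tract difference 4.73 (SE 0.43, adjusted p = 9.4e-09) in knockout and 3.28 (SE 0.44, adjusted p = 2.8e-06) in wild type) shares 68.7% of its 31-base words with Oas1g, so its estimated counts are uncertain. Oas3 ranged from 2.23 to 4.54 CPM in KO_ON, 1.98 to 3.82 CPM in WT_ON, 0.262 to 0.673 CPM in KO_CCg and 0.324 to 0.979 CPM in WT_CCg.

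The IFIT family, whose proteins bind the 5′ ends of foreign RNA and block its translation, was called higher in optic nerve in 4 of 4 members and both genotypes. Ifit3 (chromosome 19, 34583531 to 34588731) stood at 158, 179, 146, 156 and 247 CPM in KO_ON and 116, 202, 136 and 98.8 CPM in WT_ON. Ifit3 in callosum ranged from 5.70 to 16.04 CPM (median 9.77) in KO_CCg and was at 19.1, 25.7, 6.63, 12.2 and 21.6 CPM in WT_CCg. Ifit3b (chromosome 19, 34607970 to 34613401) stood at 42.8, 61.8, 52.7, 51.3 and 94.1 CPM in KO_ON and 44.01, 60.6, 41.9 and 46.8 CPM in WT_ON. This pair shares 61.8% of the 31-base words of Ifit3 and 54.1% of those of Ifit3b, so the split of reads between them is uncertain. Ifit3b in callosum ranged from 4.33 to 9.77 CPM (median 6.17) in KO_CCg and was at 11.4, 10.6, 3.19, 6.67 and 13.5 CPM in WT_CCg. Ifit1 (chromosome 19, 34640871 to 34650009), which shares 9.16% of its words with Ifit1bl2, stood at 43.04, 50.6, 51.8, 48.2 and 68.98 CPM in KO_ON and 46.5, 75.6, 45.4 and 26.5 CPM in WT_ON. Ifit1 in callosum ranged from 1.29 to 3.005 CPM (median 2.29) in KO_CCg and was at 4.53, 8.42, 1.50, 2.44 and 5.54 CPM in WT_CCg. For all 3, the callosum library WT_CCg_685232 lay far below WT_CCg_28, WT_CCg_30 and WT_CCg_7198587 and inside or below the knockout range. Ifit2 ranged from 46.97 to 78.1 CPM in KO_ON, 56.1 to 70.7 CPM in WT_ON, 10.9 to 22.6 CPM in KO_CCg and 15.7 to 25.5 CPM in WT_CCg.

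Of the 5 GTPases, which act on viruses (Mx) or on the vacuoles of intracellular pathogens (Gbp), 5 were called higher in optic nerve in knockout and 4 in wild type. Mx1 (chromosome 16, 97447035 to 97462907) stood at 4.08, 8.33, 6.26, 3.07 and 7.06 CPM in KO_ON and 3.10, 4.996, 2.52 and 2.35 CPM in WT_ON. Mx1 in callosum ranged from 1.06 to 1.87 CPM (median 1.47) in KO_CCg and was at 0.924, 1.01, 0.905, 1.39 and 1.41 CPM in WT_CCg. The callosum genotypes overlapped for Mx1, with WT_CCg_28, WT_CCg_30 and WT_CCg_685232 below all KO_CCg libraries. Mx2, which shares 7.96% of its 31-base words with Mx1, ranged from 6.47 to 10.7 CPM in KO_ON, 5.40 to 8.62 CPM in WT_ON, 1.91 to 3.46 CPM in KO_CCg and 2.48 to 6.67 CPM in WT_CCg. With these levels, Mx2 passed the fold threshold for tract in knockout and missed it in wild type. Gbp2 ranged from 53.2 to 127 CPM in KO_ON, 43.3 to 72.4 CPM in WT_ON, 6.71 to 11.4 CPM in KO_CCg and 5.25 to 14.5 CPM in WT_CCg. Gbp3 and Gbp7 had tract differences of 2.52 and 1.93 in knockout and 1.78 and 1.68 in wild type, and Gbp7 shares 10.8% of its words with Gm43802.

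Isg15 and Usp18 form a pair of modifier and brake. Isg15 (chromosome 4, 156199424 to 156200818), a ubiquitin-like protein that is attached to other proteins, stood at 19.99, 22.7, 20.02, 14.3 and 41.9 CPM in KO_ON and 14.3, 25.5, 15.05 and 10.9 CPM in WT_ON. Isg15 in callosum ranged from 1.55 to 2.76 CPM (median 2.27) in KO_CCg and was at 2.47, 3.23, 1.41, 2.33 and 3.76 CPM in WT_CCg. Usp18 (chromosome 6, 121245906 to 121270917), which removes ISG15 and damps the type I receptor, stood at 18.1, 19.99, 19.4, 17.1 and 32.97 CPM in KO_ON and 16.4, 21.7, 14.5 and 11.9 CPM in WT_ON. KO_ON_719856 was highest in optic nerve for both genes, apart from the other KO_ON libraries. Usp18 in callosum ranged from 1.18 to 2.04 CPM (median 1.34) in KO_CCg and was at 3.31, 2.92, 1.03, 1.26 and 4.75 CPM in WT_CCg, so 3 of 5 wild-type libraries lay above the knockout range and WT_CCg_685232 below all others. Tract differences of Isg15 and Usp18 were 3.52 and 3.99 in knockout and 2.69 and 2.66 in wild type. Isg15 shares 10.2% of its 31-base words with AC151275.1.

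The other effectors held both the highest (Ifi27l2a) and the lowest (Cmpk2) tract difference of the 36 members in knockout. Ifi27l2a (chromosome 12, 103442167 to 103443680) and Ifi27 (chromosome 12, 103434211 to 103440239) are neighbours on opposite strands and code for small membrane proteins of one family. Ifi27l2a stood at 27.3, 25.6, 27.97, 12.7 and 26.2 CPM in KO_ON and 21.6, 27.3, 18.5 and 20.1 CPM in WT_ON. Ifi27l2a in callosum ranged from 0.216 to 0.462 CPM (median 0.342) in KO_CCg and was at 1.30, 0.870, 0.661, 1.18 and 1.54 CPM in WT_CCg. All KO_CCg libraries lay below all WT_CCg libraries for this gene, and KO_ON_717651 lay below all other optic nerve libraries. Its tract difference was 6.16 (SE 0.26, adjusted p = 2.4e-13) in knockout and 4.35 (SE 0.25, adjusted p = 2.8e-11) in wild type. The size of the knockout value rests on only 4 to 10 estimated counts in each KO_CCg library. Ifi27 stood at 138, 153, 184, 122 and 128 CPM in KO_ON and 157, 154, 151 and 147 CPM in WT_ON. Ifi27 in callosum ranged from 31.8 to 45.03 CPM (median 39.99) in KO_CCg and was at 60.6, 63.6, 45.5, 64.6 and 65.1 CPM in WT_CCg. Again all KO_CCg libraries lay below all WT_CCg libraries, by a narrow gap at WT_CCg_685232, and the tract difference was 1.96 (SE 0.11, adjusted p = 1.3e-11) in knockout and 1.39 (SE 0.12, adjusted p = 1.2e-08) in wild type. Ifi27l2a shares 6% of its 31-base words with Ifi27l2b, and Ifi27 shares 0% with any other gene.

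**Figure D3:**
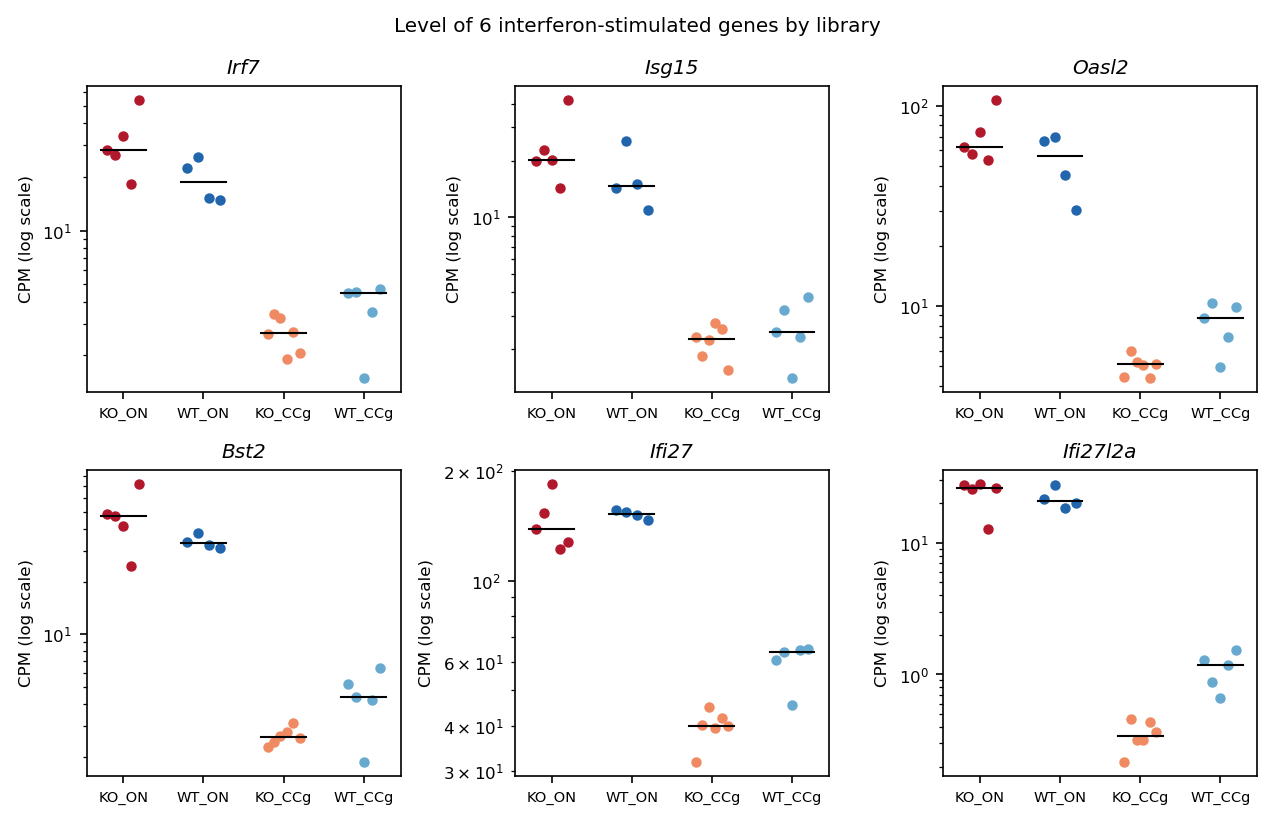
Level of Irf7, Isg15, Oasl2, Bst2, Ifi27 and Ifi27l2a in each library (points, CPM on a log scale; the line is the group median). In each panel the optic nerve groups on the left lie above the callosum groups on the right, and only Ifi27 and Ifi27l2a have KO_CCg libraries all below WT_CCg libraries.

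Bst2 (chromosome 8, 71534255 to 71537456), tetherin, which holds budding viruses at the cell surface, stood at 48.9, 47.6, 41.4, 24.5 and 72.2 CPM in KO_ON and 33.5, 37.9, 32.5 and 31.2 CPM in WT_ON. Bst2 in callosum ranged from 2.27 to 3.09 CPM (median 2.60) in KO_CCg and was at 5.19, 4.40, 1.86, 4.22 and 6.46 CPM in WT_CCg. In wild-type callosum 4 of 5 libraries lay above the knockout range and WT_CCg_685232 below it. Lgals3bp (chromosome 11, 118392751 to 118402092), a secreted glycoprotein, stood at 136, 140.4, 115, 79.9 and 184 CPM in KO_ON and 108, 115, 101 and 79.3 CPM in WT_ON. Lgals3bp in callosum ranged from 10.04 to 14.6 CPM (median 12.3) in KO_CCg and was at 14.4, 16.2, 11.4, 12.8 and 22.7 CPM in WT_CCg. Bst2 and Lgals3bp had tract differences of 4.26 and 3.50 in knockout and 2.98 and 2.75 in wild type. Ifi35 (chromosome 11, 101448407 to 101458698) stood at 23.4, 22.5, 20.2, 15.1 and 24.5 CPM in KO_ON and 20.9, 20.5, 17.4 and 13.3 CPM in WT_ON, with 1.90 to 2.68 CPM in KO_CCg and 2.99, 2.87, 1.86, 2.64 and 2.99 CPM in WT_CCg. Ifi44 (chromosome 3, 151730922 to 151749960) stood at 4.18, 6.79, 7.52, 2.95 and 12.4 CPM in KO_ON and 4.97, 4.49, 3.91 and 2.69 CPM in WT_ON, with 0.175 to 0.764 CPM in KO_CCg and 1.30, 0.822, 0.621, 0.711 and 1.07 CPM in WT_CCg. Its KO_ON values spread widely, with KO_ON_719856 at the top and KO_ON_717651 at the bottom.

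Samd9l, Parp14 and Cmpk2 completed the members with a value for each library outside KO_CCg. Samd9l (chromosome 6, 3372257 to 3399572), an inhibitor of growth and translation, stood at 38.04, 39.2, 35.2, 33.7 and 29.4 CPM in KO_ON and 39.01, 44.3, 36.2 and 23.3 CPM in WT_ON, with 2.53 to 5.19 CPM in KO_CCg and 4.22, 3.94, 2.69, 1.77 and 3.85 CPM in WT_CCg. It was the one member whose tract difference was smaller in knockout (3.36) than in wild type (3.49), a difference that was not called. Parp14 (chromosome 16, 35832874 to 35871544), a mono-ADP-ribosyltransferase, stood at 33.3, 34.1, 33.9, 25.3 and 40.6 CPM in KO_ON and 31.2, 38.6, 22.9 and 21.8 CPM in WT_ON, with 5.26 to 7.18 CPM in KO_CCg and 7.63, 7.57, 5.01, 5.21 and 7.45 CPM in WT_CCg. Cmpk2 (chromosome 12, 26469204 to 26479837) stood at 17.1, 27.5, 19.8, 18.4 and 52.4 CPM in KO_ON and 16.2, 19.5, 17.9 and 15.9 CPM in WT_ON, with 13.8 to 23.1 CPM in KO_CCg and 13.9, 15.7, 15.8, 12.8 and 21.04 CPM in WT_CCg. Apart from KO_ON_719856 and KO_ON_48118A4, the optic nerve levels of Cmpk2 lay within the callosum range. Rsad2 (viperin), which makes a chain-terminating nucleotide, had tract differences of 2.64 in knockout and 1.61 in wild type. Rtp4 (2.86 in knockout and 2.11 in wild type), Trim30a (2.51 and 2.07) and Xaf1 (1.06 and 0.87) were the remaining effectors. Rtp4 shares 12.5% of its words with Gm45338 and Trim30a 8.53% with Trim30d.

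Across the libraries of a tract, members tended to be high or low together. KO_ON_719856 was the highest of the 9 optic nerve libraries for 25 of 36 members and KO_ON_693452 for 7. WT_ON_719857 was the lowest for 26. Among the 11 callosum libraries, WT_CCg_7198587 was the highest for 14 members, WT_CCg_28 for 9 and WT_CCg_30 for 7, while WT_CCg_685232 was the lowest for 11 and KO_CCg_717651 for 7. Relative to the tract median, on the log2 CPM scale, the mean over members ran from -0.51 in WT_ON_719857 to 0.57 in KO_ON_719856 and from -0.29 in WT_CCg_685232 to 0.46 in WT_CCg_7198587. The libraries that share the number of KO_ON_719856 went opposite ways, as KO_ON_719856 had the highest sum of the optic nerve libraries and KO_CCg_719856 the lowest of the KO_CCg libraries.

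**Figure D4:**
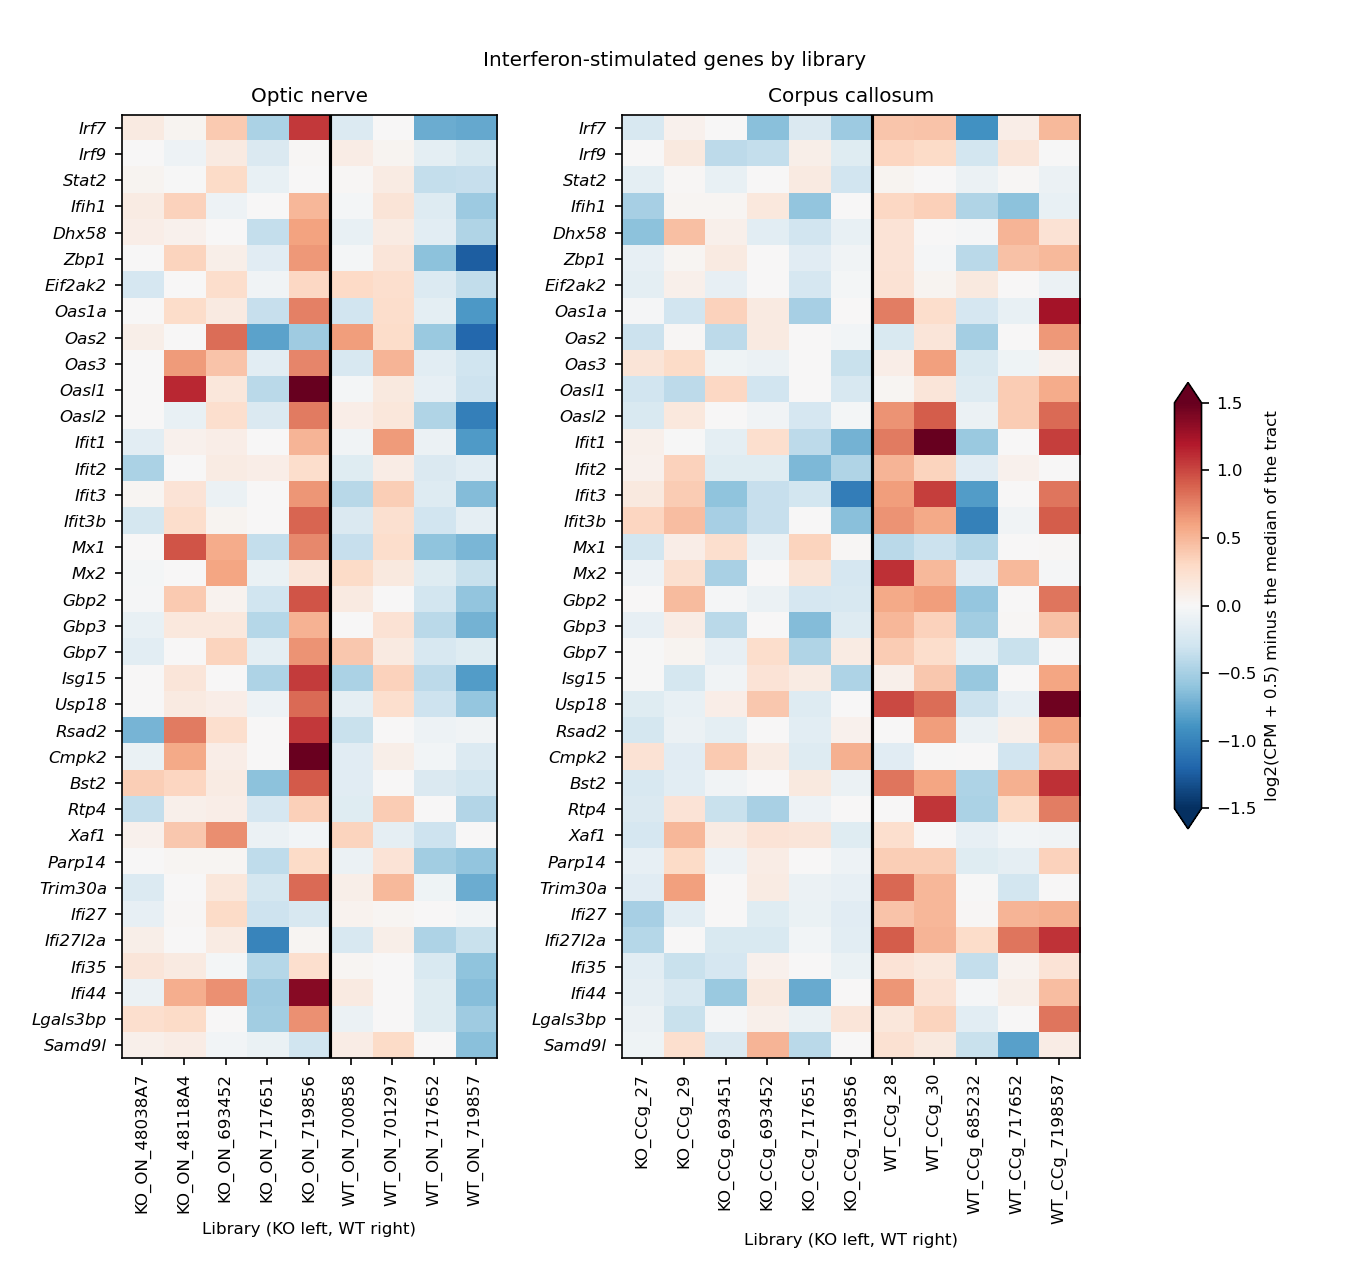
Deviation of each gene from the median of its tract, on the log2 CPM scale, in each optic nerve (left panel) and callosum (right panel) library; red is above and blue below the median, and colours saturate at 1.5. The KO_ON_719856 column is mostly red, the WT_ON_719857 and WT_CCg_685232 columns are mostly blue, and the columns of WT_CCg_28, WT_CCg_30 and WT_CCg_7198587 are mostly red.

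KO_ON_719856 also differed from the other optic nerve libraries in marker levels. Its microglia markers (2156 CPM) and monocyte and neutrophil markers (230.3 CPM) were the highest in optic nerve, its oligodendrocyte markers the lowest, and its retinal markers summed to 60.74 CPM, against 22.4 to 29.8 CPM in the other 8. Their part in its levels was not tested. Without it the mean summed level of KO_ON was 1311 CPM, and without WT_CCg_7198587 that of WT_CCg was 299.2 CPM. With both left out, 35 members were called higher in optic nerve in knockout (median 3.10) and 32 in wild type (median 2.40).

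Within callosum, wild-type libraries were more spread out for most members. The SD of log2 levels was larger in WT_CCg than in KO_CCg for 26 of 33 tested members, against 50.8% of all genes tested, with a median of 0.249 in KO_CCg and 0.371 in WT_CCg for members and 0.235 and 0.233 for all genes. Without WT_CCg_7198587 it was larger in wild type for 25 of 33 (45.3% of all genes). The count was not repeated without WT_CCg_685232, the lowest callosum library for 11 members, so its part in this spread is not known. In the other WT_CCg libraries Ifi27 ran only from 60.6 to 65.1 CPM, while Ifit1 still ran from 2.44 to 8.42 CPM. In optic nerve the SD was larger in wild type for 17 of 36 members (43.3% of all genes), with medians of 0.365 in KO_ON and 0.329 in WT_ON. Without KO_ON_719856 that count was 24 of 36 (48.7%), with a KO_ON median of 0.273. These are descriptions, since members vary together and were not counted as separate observations.

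In corpus callosum, most members had lower estimates in knockout than in wild type, but 0 passed the edgeR test. Of the 33 members tested, 29 had a negative log2 fold change and 4 a positive one (Mx1 0.34, Cmpk2 0.12, Samd9l 0.10, Xaf1 0.06), with a median of -0.43, against -0.013 over all 15519 genes, 52.5% of which were negative. By edgeR 0 members were called, where the background of genes called was 0.0387%, and 13 had an unadjusted p under 0.05, all lower in knockout, against a background of 6.89% lower. DESeq2 called 3 of the 33, against 1.12% of all genes, and limma-voom weighted by sample quality called 9, against 18% of all genes. A fit of all 20 libraries called 2 (Ifi27 and Ifi27l2a), against 0.249% of all genes. By role, all 3 transcription factors, all 3 sensors tested, all 3 2-5A synthetase genes tested, all 4 IFIT genes, 4 of 5 GTPases, both ISG15 genes and 10 of 13 other effectors had a negative estimate.

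Ifi27l2a had the largest callosum estimate, -1.68 (SE 0.29, adjusted p = 0.102), and Ifi27 the next smallest p, at -0.64 (SE 0.12, adjusted p = 0.127). These were the 2 members whose KO_CCg libraries all lay below the WT_CCg libraries, against 0.67% of all genes. Ifi27l2a held only 4 to 10 estimated counts in KO_CCg and 16 to 36 in WT_CCg. It thus passed the low-count filter through the wild-type libraries, where it was higher, and its callosum values are read with that limit. Oasl2 was at -0.75 (SE 0.19, adjusted p = 0.247), Bst2 at -0.80 (SE 0.26, adjusted p = 0.341), Ifit1 at -1.08 (SE 0.39, adjusted p = 0.381) and Ifi44 at -0.95 (SE 0.36, adjusted p = 0.393). Usp18 (-0.92), Ifit3 (-0.76), Irf7 (-0.54), Ifit3b (-0.49), Isg15 (-0.30), Irf9 (-0.27) and Stat2 (-0.08) had adjusted p-values from 0.397 to 0.738. Leaving out WT_CCg_685232, the wild-type library with the lowest member levels, gave 4 calls (Bst2, Ifi27, Ifi27l2a and Oasl2; 0.263% of all genes were called), and leaving out any other library gave 0. Without WT_CCg_7198587 the median was -0.33, with 29 of 33 negative and 6 at an unadjusted p under 0.05. Within the 2-digit sample numbers (2 knockout, 2 wild type) the median was -0.53, and within the longer numbers (4 knockout, 3 wild type) -0.36.

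Microglia markers had estimates in the same direction. All 17 were negative in knockout over wild-type callosum (median -0.347, 0 called, 14 with an unadjusted p under 0.05), and their sum was 591.2 to 715.5 CPM in KO_CCg and 744.5 to 835.1 CPM in WT_CCg, without overlap. Oligodendrocyte marker estimates were negative in 11 of 11 (median -0.514, 0 called) and those of neuron markers positive in 12 of 12 (median 0.648, 0 called). Neuron markers summed to 1644 to 6301 CPM in KO_CCg and 1320 to 4354 CPM in WT_CCg. Estimates were also negative for 5 of 5 red blood cell markers (median -0.517), 8 of 8 ependyma and choroid plexus markers (median -0.368) and 8 of 8 meningeal fibroblast markers (median -0.243), with 0 called in each list. Red blood cell markers were highest in WT_CCg_7198587, at 516.3 CPM, against 173.2 to 283.8 CPM in the other 10 callosum libraries. The part of these cell types in the callosum difference was not tested. Markers of T and NK cells were under 1 CPM in every callosum library for 13 of 16. The 5 that were tested went the other way, with 5 positive estimates (median 0.0921, 0 called).

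In optic nerve, the estimates pointed the other way, and again 0 passed. Of 36 members tested 34 had a positive estimate and 2 a negative one (Ifi27 -0.08 and Samd9l -0.03), with a median of 0.29, against 0.012 over all 15556 genes. By edgeR, DESeq2 and limma-voom 0 members were called, where these tools called 0.0129%, 0.225% and 0.0129% of all genes, and 2 members (Irf7 and Mx1) had an unadjusted p under 0.05 by edgeR, both higher, close to the background of 2.83% higher. Irf7 was at 0.71 (SE 0.29, adjusted p = 0.846), Mx1 at 0.82 (SE 0.33, adjusted p = 0.846), Oasl1 at 0.86 (SE 0.42, adjusted p = 0.846), Ifi44 at 0.75 (SE 0.37, adjusted p = 0.846), Cmpk2 at 0.63 (SE 0.31, adjusted p = 0.846) and Bst2 at 0.46 (SE 0.24, adjusted p = 0.846). No member had all KO_ON libraries above all WT_ON libraries (1.13% of all genes did). The optic nerve median depended on single libraries, at 0.188 without KO_ON_719856 (29 of 36 positive) and 0.449 without WT_ON_701297 (35 positive), and 28 were positive without WT_ON_719857 (median 0.217). With limma-voom the median was 0.157 and 26 of 36 estimates were positive. With KO_ON_719856 left out, Cmpk2 had an estimate of 0.23. Among marker lists, estimates were positive for 5 of 5 red blood cell markers (median 0.397) and 9 of 12 neuron markers (median 0.415). They were also positive for 4 of 4 retinal markers tested (median 0.296) and 11 of 17 microglia markers (median 0.034). Estimates were negative for 7 of 11 oligodendrocyte markers (median -0.141) and 5 of 7 border macrophage markers (median -0.0836). Signs were evenly split for T and NK cell, endothelial, pericyte and smooth muscle, meningeal fibroblast and astrocyte markers. Each of these lists had 0 called, and their part in the optic nerve estimates was not tested.

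**Figure D5:**
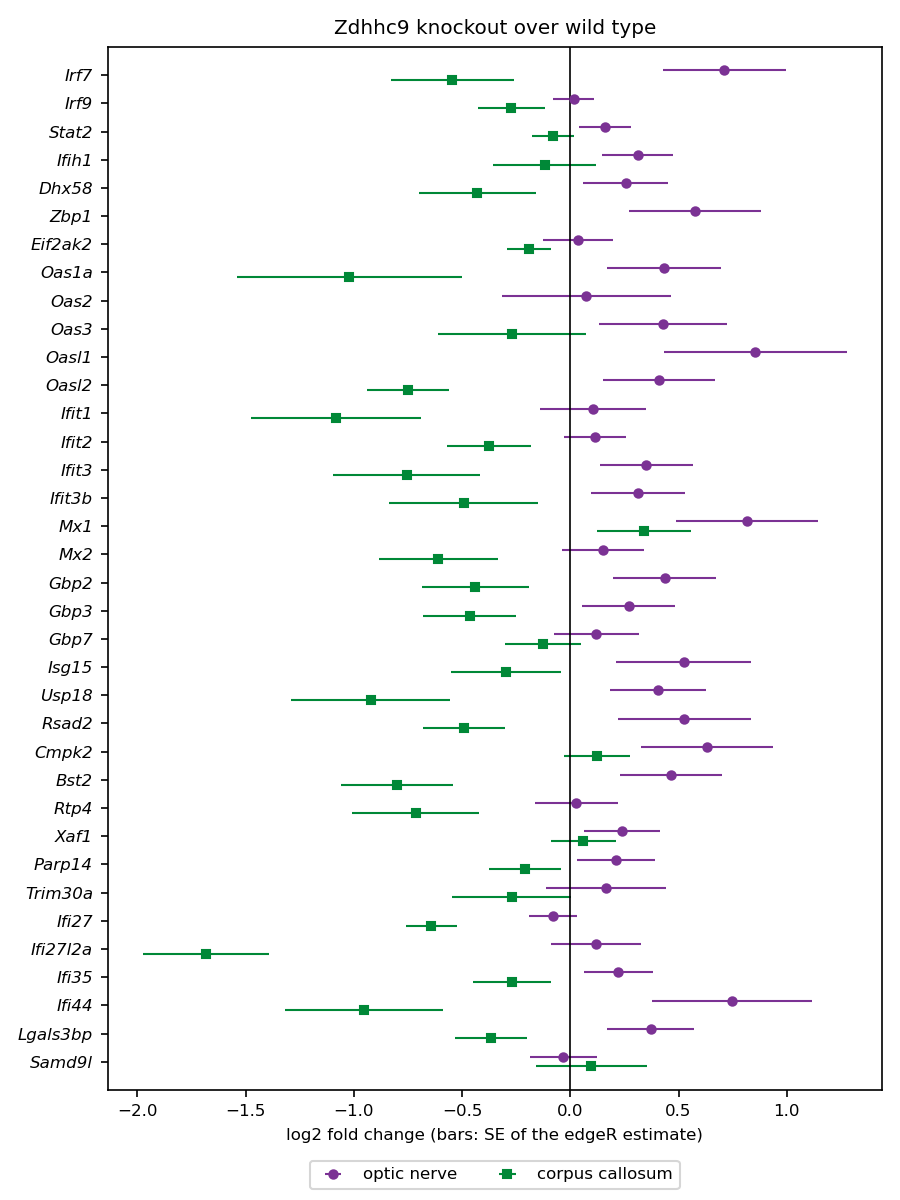
Log2 fold change of knockout over wild type for each gene in optic nerve (purple circles) and callosum (green squares), with bars for the SE; Zbp1, Oas2 and Oasl1 were not tested in callosum. Of the callosum estimates 29 of 33 lie left of 0 and of the optic nerve estimates 34 of 36 right of 0, and 0 estimates pass the adjusted threshold in either tract.

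The difference between the tracts in the genotype effect was estimated in a fit of all 20 libraries as the optic nerve effect minus the callosum effect. It was positive for 35 of 36 members, with a median of 0.746 against 0.028 over all genes, and 28 of the 33 members tested in both tracts had a negative estimate in callosum and a positive one in optic nerve. The 36 include Oas2, Oasl1 and Zbp1, which failed the low-count filter in callosum alone, so their estimates add no separate support. By edgeR 0 of 36 members and 0% of all genes passed, as was the case with DESeq2 and limma-voom, and 16 members had an unadjusted p under 0.05, all positive, against a background of 4.46% positive. Ifi27l2a had the smallest p, at 1.81 (SE 0.36, adjusted p = 0.623), with the low callosum counts given above. Next came Ifi27 at 0.57 (SE 0.17, adjusted p = 0.725), Oasl2 at 1.17 (SE 0.34, adjusted p = 0.725), Bst2 at 1.27 (SE 0.38, adjusted p = 0.725), Ifi44 at 1.71 (SE 0.55, adjusted p = 0.725) and Irf7 at 1.27 (SE 0.43, adjusted p = 0.725). Leaving out KO_ON_717651 gave 1 call, Ifi27l2a (1.97, adjusted p = 0.0356), where 0.0061% of all genes were called. Without KO_ON_719856 and WT_CCg_7198587 the median was 0.511, and 7 members had an unadjusted p under 0.05. The difference was also positive for 5 of 5 red blood cell markers (median 0.918), 11 of 11 oligodendrocyte markers (median 0.437) and 15 of 17 microglia markers (median 0.394). It was negative for 8 of 12 neuron markers (median -0.258) and 8 of 14 T and NK cell markers tested (median -0.109). Each of these lists had 0 called, and their part was not tested.

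Upstream of the members, interferon genes themselves were barely detected. All 21 interferon ligands of the list were under 1 CPM in every library, and their sum reached at most 0.574 CPM in KO_ON, 0.321 CPM in WT_ON, 0.270 CPM in KO_CCg and 0.110 CPM in WT_CCg. Of 19 receptor and signalling genes, 10 were called higher in optic nerve in both genotypes, against 14.9% of all genes in knockout and 13% in wild type. Among the called were Ifnar2, Ifngr1, Ifnlr1, Il10rb, Irf1, Irf5, Irf8, Socs1 and Socs3. Ifnlr1 failed the low-count filter in callosum alone, so its call adds no separate support. Ifnar2, a chain of the type I receptor, had tract differences of 1.37 in knockout and 1.12 in wild type, and Ifngr1, a chain of the type II receptor, 1.31 and 1.17. The remaining receptor chains and kinases had small tract differences, such as Ifnar1 at 0.40 in knockout and 0.31 in wild type, Tyk2 at 0.62 and 0.38, Ifngr2 at -0.15 and 0.09, and Jak1 at -0.03 and 0.19. With genotype, 0 of 19 passed in optic nerve and 0 of 18 in callosum.

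Other genes induced by interferons were also mostly higher in optic nerve. Of 65 such genes, 61 were called higher in optic nerve in knockout (not Oas1c, Pml, Slfn9 and Znfx1) and 58 in wild type (also not Nmi, Psmb10 and Psme1), with medians of 2.49 and 2.21. Over all 16440 genes, 14.9% and 13% were called higher. Only 55 of the 65 passed the low-count filter in callosum alone, so the calls of the rest add no separate support. Of 19 genes of nucleic acid sensing, 11 and 9 were called higher, with Ddx58, Ifi204, Samhd1, Ticam1, Tlr3, Tlr7, Tlr9, Tmem173 and Trex1 called in both genotypes and Ikbke and Myd88 in knockout. With genotype, 0 of 65 and 0 of 19 passed in optic nerve, and 0 of 55 and 0 of 19 in callosum. In callosum 43 of the 55 tested had a negative estimate (median -0.145), and in optic nerve 54 of 65 had a positive one (median 0.16). Beyond the members, genes whose promoter held the core were called higher in optic nerve in 29% of 448 in knockout and 26.6% in wild type, and genes without it in 14.1% and 12.1% of 11768. Among members with and without the core, 15 of 15 and 10 of 11 were called in knockout, and 14 of 15 and 9 of 11 in wild type. The 65 other induced genes were not taken out of the genes beyond the members, and these shares were not tested.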

How the data were processed

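RNA of 20 libraries was sequenced from a stranded mRNA preparation, per the labels' protocols. The authors deposited one table of estimated counts per gene, made with the mm10 build per the submitters' processing notes; neither the quantifier's version nor its annotation is stated in the sources used here. Levels in CPM are estimated counts scaled to a common library total, without TMM factors. Figures of deviations use log2(CPM + 0.5). Estimated counts were rounded, filtered with filterByExpr (minimum count 10, minimum total 15), scaled by TMM and tested with edgeR's quasi-likelihood test (edgeR 4.0.16, limma 3.58.1, DESeq2 1.42.0, R 4.3.3) with Benjamini-Hochberg adjustment over all genes tested. Each tract was fitted apart for genotype, and all 20 libraries were fitted together for tract differences and their difference. Genes were called at an adjusted p under 0.05, and for tracts also at a log2 fold change of at least 1. The fits were tested on simulated data. Members, gene lists and the rule for named genes were chosen with earlier results of these data known. Members named by that rule have a value for each library outside KO_CCg and a range within it. The others are given as ranges or as tract differences only. Genes called in the list of 65 other induced genes are given as counts with their exceptions. A pathway gene that the rule names is not reported here.

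Libraries held between 15401130 and 26095622 estimated counts, and no interval for counting error is given, since group spread sets the precision. Gene positions and lengths are from GENCODE M21 (GRCm38, the assembly of mm10), with identifiers matched without their version for 46005 of 46517 rows. Promoter sequences are from RefSeq, build GRCm38.p6. Alternatives were other tools, scalings, filters, left-out libraries, sample number format and a replicate block. Some sample numbers occur in both tracts of one genotype, and the labels do not say that a shared number is a shared animal.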

Additional observations from a re-analysis of the deposited data

Results flagged for a closer look

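In 148 gene and group combinations, 7 had 1 library separated from the rest of its group by a gap over Dixon's 95% critical value; chance flags about 1 in 20 groups. Usp18 was at 33.0 CPM in KO_ON_719856 and between 17.1 and 20 CPM in the other KO_ON libraries. Ifi27l2a was at 12.7 CPM in KO_ON_717651 and between 25.6 and 28 CPM in the other KO_ON libraries. Oas3 was at 3.82 CPM in WT_ON_701297, against 1.98 to 2.23 CPM in the other WT_ON libraries. Ifit2 was at 70.7 CPM in that same library and between 56.1 and 58.5 CPM in the others. Gbp2 was at 11.4 CPM in KO_CCg_29, against 6.71 to 8.10 CPM in the other KO_CCg libraries. Trim30a was at 4.17 CPM in KO_CCg_29 and between 2.21 and 2.81 CPM in the others. Ifi27 was at 45.5 CPM in WT_CCg_685232, against 60.6 to 65.1 CPM in the other WT_CCg libraries.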

How the results depend on the processing

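All 36 members stayed higher in optic nerve than in callosum under every alternative run, with 34 to 35 called in knockout and 32 to 33 in wild type. Genotype calls depended on the method. In callosum, against 0 called by edgeR, DESeq2 called 3 (Ifi27, Ifi27l2a, Oasl2), limma-voom with sample quality weights 9 (also Bst2, Ifit2, Ifit3, Irf9, Mx2, Rtp4) and a fit of all 20 libraries 2 (Ifi27, Ifi27l2a), while leaving out single libraries gave 0 to 4. Counts over all callosum genes moved as well, with 6 called by edgeR, 174 by DESeq2, 2786 by limma-voom, 41 in the fit of all 20 libraries, 10 with number format as a covariate and 2 to 41 with a library left out; DESeq2 called 35 genes in optic nerve, against 2 by edgeR. The number of callosum members with an unadjusted p under 0.05 was 13 by edgeR. With a library left out it ranged from 5 (without WT_CCg_30) to 20 (without WT_CCg_685232), with 6 without WT_CCg_7198587 and 7 without WT_CCg_28, and it was 4 of 34 tested within the longer sample numbers. In optic nerve limma-voom gave 10 of 36 negative estimates and a median of 0.157, against 2 and 0.29 by edgeR. Among the members named for the optic nerve comparison, Irf9 and Ifi27l2a turned negative (-0.0428 and -0.021). Irf9 ranged from -0.0295 to 0.0595 with single libraries left out. The difference between tracts gave 0 to 1 calls with a library left out. With the replicate block, treating shared numbers as pairs, 35 members were called in knockout tracts (median 3.29 by duplicateCorrelation, 3.22 as a fixed term), and 0 for the difference between tracts (medians 0.625 and 0.673). Same-numbered libraries did not deviate together throughout, with correlations of 0.0178, -0.153, 0.134 and -0.0532, so the numbers were not used as pairs. No paired analysis was possible because knockout and wild type share no numbers, as far as genotype effects are concerned. The causes of these changes were not tested. The callosum fits within 2-digit or longer sample numbers (medians -0.53 and -0.358), and an optic nerve fit of 6-digit numbers alone, were chosen after seeing the data.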
